A study of Mus musculus with 18 samples.

Results

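CpG methylation was examined at the vomeronasal receptor genes, the Vmn1r and Vmn2r genes of the mouse, in embryonic stem cells with and without deletion of Dnmt1. The members were the 435 autosomal genes of the GENCODE annotation of the NCBIM37 genome whose symbol starts with Vmn1r or Vmn2r, of 34653 autosomal genes in all. Of these, 256 were Vmn1r genes (203 protein-coding genes and 53 pseudogenes) and 179 were Vmn2r genes (124 protein-coding genes, 52 pseudogenes and 3 processed transcripts). Each gene was taken with 1 kb on either side, and genes within 200 kb of each other were joined into a cluster, which gave 51 clusters. Chromosome 7 held 237 of the genes, chromosome 6 held 68, chromosome 17 held 47 and chromosome 13 held 41. The rule itself uses only names and positions, no methylation value.

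The 18 whole-genome bisulfite libraries came from mouse embryonic stem cells (ESCs) in 2 groups. The 9 control libraries carry the genotype Wildtype in the labels, and the 9 Dnmt1 KO libraries the genotype Dnmt1 KO. Samples were taken of both groups on days 1, 3, 6, 9 and 11. Each genotype has a single library on day 6 and 2 replicates on every other day. According to the methods, Dnmt1 loxP/loxP cells lost the gene by Cre recombination induced with 4-hydroxytamoxifen, in medium with serum and LIF. The labels give the strain as E14 for all libraries, while the methods describe the floxed cells as C57BL/6. Whether the controls are untreated cells of the floxed line is not stated, so a fixed difference between lines may be part of a difference between genotypes at any day, but not of a change between days within Dnmt1 KO. Nothing states that the replicates were separate cultures, so p-values measure only the spread between these libraries, which may be technical.

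Vomeronasal receptors are G-protein-coupled receptors of sensory neurons in the vomeronasal organ, where they detect pheromones and other chemical cues from animals. The V1R receptors, encoded by short genes with the coding sequence in a single exon, signal through the G-protein subunit made from Gnai2. The V2R receptors, encoded by longer genes with several coding exons and a large extracellular part, signal through the subunit made from Gnao1. Both families have grown by gene duplication into large tandem clusters with many pseudogenes. DNMT1 copies CpG methylation onto the new strand after replication, so that methylation is diluted by cell division in its absence, while DNMT3A and DNMT3B can add methylation anew.

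The gene starts show how few CpGs these genes hold. In the window from 250 bases before to 50 bases after the annotated start, the median Vmn gene had 1 CpG and 124 of the 435 genes had 0. The starts of 3 genes are given 5′ to 3′ on the strand of the gene, in lower case with each CpG in capitals. The first, of Vmn2r-ps19, had the most CpGs and the most calls among Vmn2r genes. The others belong to the genes with the lowest and the highest level in Dnmt1 KO at days 6 to 11 among genes with at least 100 calls there, and were chosen after these values were seen.
Vmn2r-ps19, chr4:146817330-146817629 (NCBIM37), plus strand: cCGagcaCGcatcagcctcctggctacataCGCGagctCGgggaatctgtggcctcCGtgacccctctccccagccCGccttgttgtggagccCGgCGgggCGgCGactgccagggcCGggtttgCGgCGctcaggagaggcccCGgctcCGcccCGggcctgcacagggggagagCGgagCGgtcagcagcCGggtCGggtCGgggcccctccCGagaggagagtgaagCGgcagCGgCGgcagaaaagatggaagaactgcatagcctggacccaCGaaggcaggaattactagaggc
Vmn2r106, chr17:20422345-20422644 (NCBIM37), minus strand: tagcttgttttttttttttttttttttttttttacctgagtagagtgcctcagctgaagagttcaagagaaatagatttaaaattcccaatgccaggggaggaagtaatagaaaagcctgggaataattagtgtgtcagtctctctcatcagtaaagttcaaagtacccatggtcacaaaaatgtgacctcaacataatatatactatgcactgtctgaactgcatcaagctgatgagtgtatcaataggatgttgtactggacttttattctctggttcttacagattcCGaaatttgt
Vmn1r88, chr7:13762818-13763117 (NCBIM37), plus strand: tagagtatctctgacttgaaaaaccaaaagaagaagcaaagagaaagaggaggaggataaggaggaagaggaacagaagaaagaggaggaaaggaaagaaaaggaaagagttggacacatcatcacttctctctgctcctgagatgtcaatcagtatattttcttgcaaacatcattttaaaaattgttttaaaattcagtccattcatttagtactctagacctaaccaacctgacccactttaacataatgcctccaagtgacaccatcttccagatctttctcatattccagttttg
The Vmn2r-ps19 window held 27 CpGs at a GC content of 69.7%. The Vmn2r106 window held 1 CpG at 35.3% and the Vmn1r88 window 0 at 37.3%. The Vmn2r-ps19 window also lay inside the annotated lincRNA genes Gm16889 and Gm17317.

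Libraries held between 7190722 and 11158414 calls, a call being 1 read over 1 cytosine of a CpG, and between 6036 and 9223 of these fell in the Vmn regions. At 1.202 to 1.253 calls per listed cytosine, single CpGs could not be compared, and calls were summed over the regions. The level is the percent of methylated calls among these. As a check of the labels, calls were counted in the stretch from exon 4 to exon 5 of Dnmt1 (chromosome 9, 20744920 to 20746027). It had 69 calls in the 9 control libraries, 0 in Dnmt1 KO day 1 replicate 1 and 2 in replicate 2. The 7 Dnmt1 KO libraries of days 3 to 11 had 0. The rest of the gene had 3471 calls in control and 2485 in those 7 libraries. A count of 0 allows up to 6.07% of the calls that the rest of the gene would predict there. Of the Vmn genes, 21 had no call in any library, 17 of them Vmn1r genes. The clusters Vmn1r91 to Vmn1r132, Vmn2r29 to Vmn2r-ps49, Vmn1r135 to Vmn1r-ps83 and Vmn2r37 to Vmn2r-ps44 on chromosome 7 and Vmn2r-ps104 to Vmn2r-ps106 on chromosome 13 had fewer than 2 calls per CpG over all libraries, against a median of 7.66 per CpG over the clusters. These 5 clusters held 86 genes. Reads from near-identical copies may be split or lost there, so their values are uncertain.

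The first comparison asked how far methylation of the receptor genes was lost. In the 9 control libraries the Vmn level ran from 73.5% through a median of 77.1% to 81.5% (mean 77.5% ± 2.61, SD, n = 9). In Dnmt1 KO it was 70.2% and 71.8% at day 1, 24.9% and 26.6% at day 3, 13.4% at day 6, 13.6% and 14.7% at day 9, and 12.7% and 13.1% at day 11. Every Dnmt1 KO library lay below every control library of its day. The mean difference over days was -50.4 points (exact permutation of genotype within days, two-sided, p = 0.000772, the smallest that the 2592 arrangements can give; adjusted p = 0.00293). Taking each day alone, Dnmt1 KO minus control was -7.98 points (day 1), -51.0 (day 3), -68.0 (day 6), -64.0 (day 9) and -61.1 (day 11). The mean of the 5 libraries of days 6 to 11 was 13.5% ± 0.770 (SD, n = 5).

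**Figure D1:**
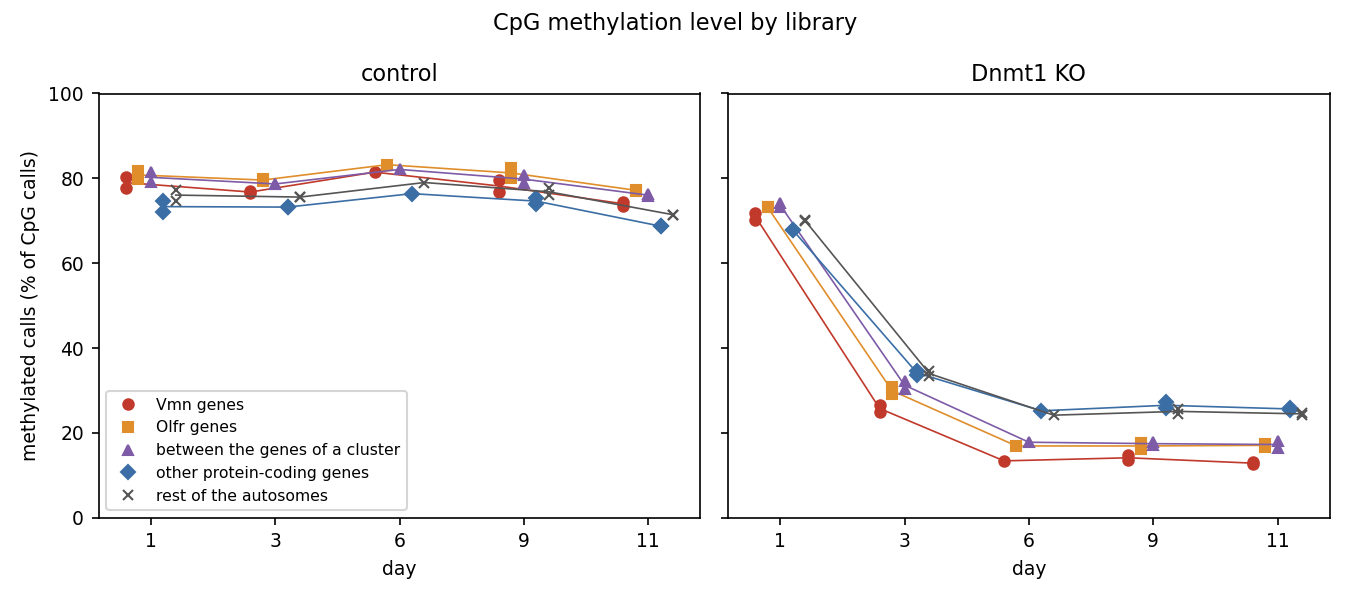
Methylated calls as a percent of CpG calls (vertical axis) at each day (horizontal axis) in control (left) and Dnmt1 KO (right) for the Vmn genes, the Olfr genes, the sequence between the genes of a Vmn cluster, other protein-coding genes and the rest of the autosomes. Each marker is a library and each line joins the means of the days. In Dnmt1 KO at days 6 to 11 the Vmn genes sit lowest, between 12.7% and 14.7%.

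The receptor genes lost more than the genome around them. In control, the Vmn level was above that of the rest of the autosomes in all 9 libraries, by 0.807 to 3.08 points (mean 2.06 ± 0.864, SD, n = 9; exact sign-flip test, two-sided, p = 0.00391, adjusted p = 0.00928). With clusters weighted equally, Vmn2r-ps19 at 25.8% in control included, this control gap was -0.21 points (p = 0.602, exact sign-flip test). In Dnmt1 KO at days 3 to 11 it was below in all 7 libraries, by a difference of -7.98 to -11.7 points (mean -10.3 ± 1.49, SD, n = 7; exact sign-flip test, p = 0.0156, the smallest that 7 libraries allow, adjusted p = 0.0247). At days 6 to 11 the rest of the autosomes held 24.2% to 25.6% in Dnmt1 KO (5 libraries). The change in this gap between genotypes was -10.2 points over days (exact permutation test, p = 0.000772, adjusted p = 0.00293, 9 of 9 Dnmt1 KO libraries below the controls of their day). As a share of the control level of the same day, the Vmn genes kept 16.5% at day 6, 18.1% at day 9 and 17.4% at day 11, and the rest of the autosomes 30.6%, 32.6% and 34.3%. More similar sets kept shares nearer to those of the Vmn genes. The olfactory receptor (Olfr) genes kept 20.4%, 20.8% and 22.1%. Sequence between the genes of a cluster kept 21.7%, 21.9% and 22.7%. The rest at the same regional GC content and local CpG density kept 22.2%, 23.4% and 24.1%. On the log2 scale of the ratio of the Vmn level to that of the rest of the autosomes, the genotypes differed by -0.64 (adjusted p = 0.00293, same test). The genotype difference in the gap changed from day 3 to days 9 and 11 by a further -3.83 points (exact permutation of days within genotype, p = 0.0133, adjusted p = 0.0247, 225 arrangements). Without either Dnmt1 KO library of day 3 in turn, 6 libraries remain within Dnmt1 KO and allow no p below 0.0312 in the exact sign-flip test. The adjusted p within Dnmt1 KO was then 0.0540 against the rest of the autosomes, the rest at the same density and the Olfr genes, and that of this change between days 0.0633.

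Other protein-coding genes were compared in the same way. The Vmn level was above theirs in every control library (mean difference 4.57 points) and from day 3 on below it in every Dnmt1 KO library. The genotypes differed by -13.1 points in this gap (exact permutation test, p = 0.000772, adjusted p = 0.00293), from -2.53 points at day 1 to -18.0 at day 11.

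Local CpG density was considered next, as the Vmn genes are poor in CpGs. CpGs with no other CpG within 250 bp made up 14.2% of the control calls in the Vmn genes and 3.36% of those in the rest of the autosomes. Among these isolated CpGs, the pooled Vmn level in Dnmt1 KO at days 6 to 11 was 9.57% (8.08% to 10.4% over 5 libraries), and that of the rest of the autosomes 16.3% (15.8% to 16.9%). At 3 CpGs within 250 bp, the CpG itself included, the levels were 12.2% and 21.1%, and at 5 to 6 they were 15.7% and 26.2%. The ranges of the 5 libraries did not overlap between the Vmn genes and the rest in these classes. At 10 to 14 CpGs they came closer, at 27.1% (24.9% to 29.5%) and 30.1% (29.5% to 31.5%), and at 15 to 24 they were 23.4% and 25.5%. At 25 or more CpGs the few Vmn calls spread widely, at 10.4% (1.81% to 44.4%) against 2.99% (2.62% to 3.83%). In control the pooled Vmn level lay below the rest in the classes up to 6 CpGs and above it from 7 CpGs on. It was 75.2% against 78.8% at isolated CpGs, 84.4% against 77.2% at 10 to 14 and 81.1% against 64.8% at 15 to 24. The closer levels in Dnmt1 KO at higher density thus do not mean a more similar loss. Within the Vmn genes, the level in Dnmt1 KO was higher with density from isolated CpGs to the class of 10 to 14, by description and without a test.

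**Figure D2:**
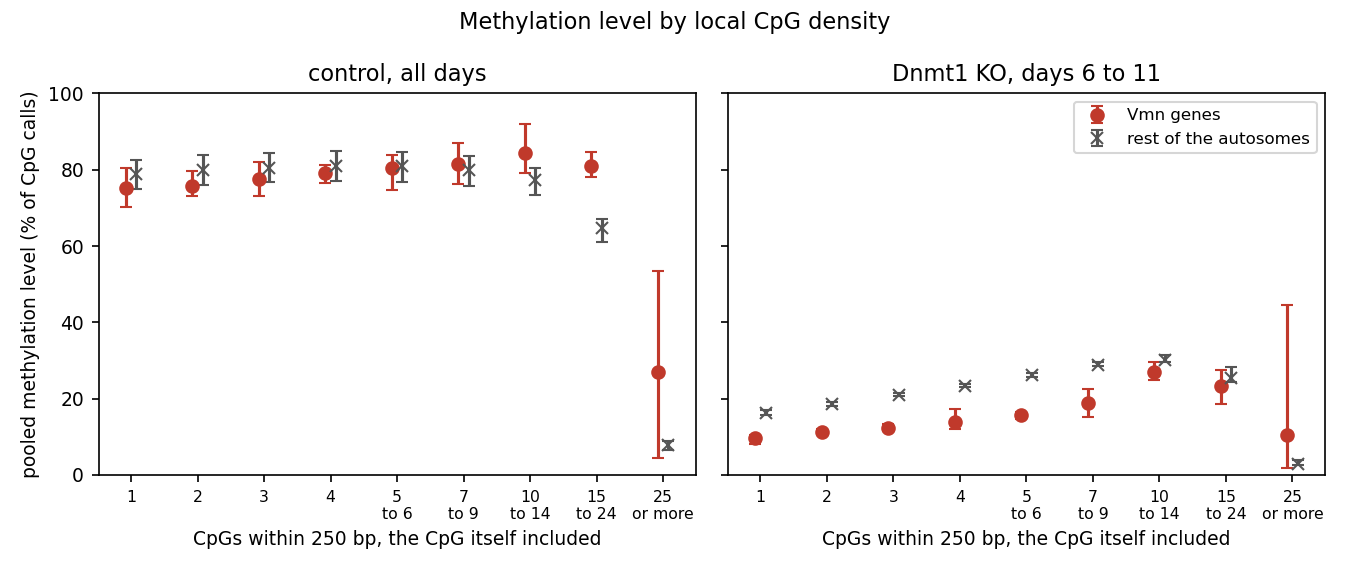
Pooled methylation level as a percent of CpG calls (vertical axis) by the number of CpGs within 250 bp (horizontal axis) in control (left) and in Dnmt1 KO at days 6 to 11 (right), for the Vmn genes and the rest of the autosomes. Bars span the lowest and highest library. In Dnmt1 KO the pooled Vmn level lies below the rest in the classes up to 24 CpGs, from 9.57% against 16.3% at isolated CpGs. At 15 to 24 CpGs the library ranges overlap.

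With the rest of the autosomes weighted to the density classes of the Vmn calls, a gap was still measured. Within Dnmt1 KO at days 3 to 11 the Vmn level differed from it by -7.63 points ± 0.909 (SD, n = 7, all 7 below; exact sign-flip test, p = 0.0156, adjusted p = 0.0247), and within control by -1.38 ± 0.739 (n = 9, all 9 below; exact sign-flip test, p = 0.00391, adjusted p = 0.00928). With whole cluster spans in place of the genes the control gap turned to 0.69 points. The gap differed by -5.06 points between genotypes (exact permutation test, p = 0.000772, adjusted p = 0.00293). Weighting by the GC content of 100 kb tiles, a comparison added after the data had been seen, gave -6.59 points within Dnmt1 KO, -1.21 within control and -4.42 between genotypes. With GC content and density together the values were -5.06, -2.05 and -2.42 points. All 7 Dnmt1 KO libraries lay below 0 in both, as did 8 and 9 of the 9 control libraries. The 12 added tests were adjusted as a family of their own, and the genotype differences had an adjusted p of 0.00231 in the exact permutation test.

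**Figure D3:**
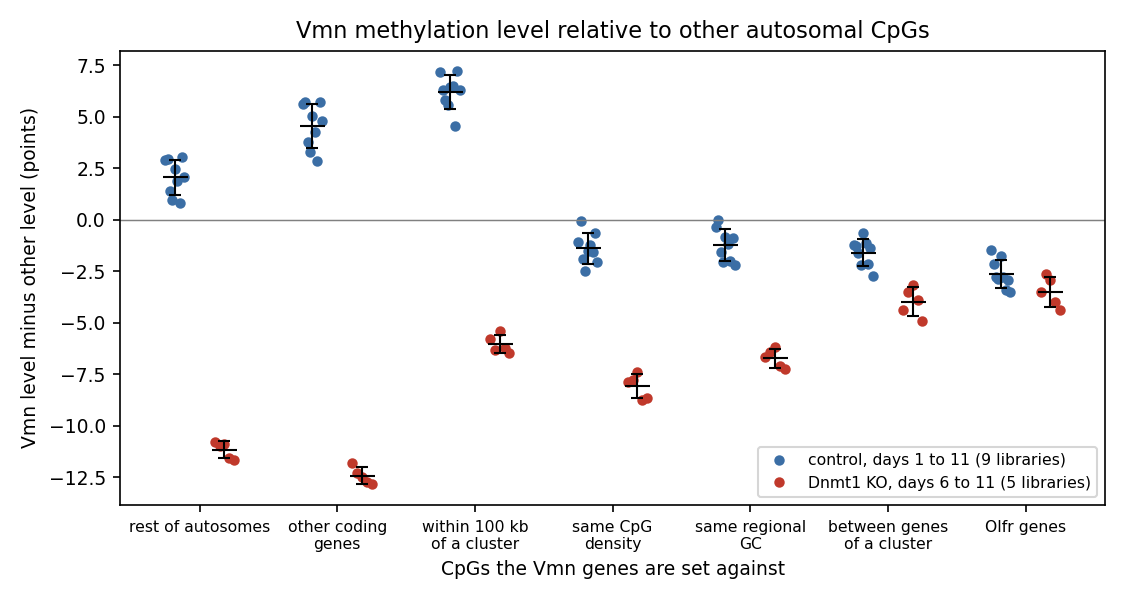
Vmn level minus the level of other autosomal CpGs in percentage points (vertical axis) for 7 sets of CpGs (horizontal axis). Each point is a library, with the 9 control libraries in blue and the 5 Dnmt1 KO libraries of days 6 to 11 in red, and black bars give the mean and SD. The Dnmt1 KO points lie below 0 for every set, while the control points lie above 0 for the rest of the autosomes, other coding genes and the flanks of the clusters.

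The position of the clusters was examined next, in sequence that belongs to no Vmn gene. Between the genes of a cluster, more than 1 kb from any of them, the level in Dnmt1 KO at days 6 to 11 was 17.5% ± 0.629 (SD, n = 5), against 13.5% in the genes. In the 50 kb outside a cluster it was 19.8% ± 0.226, at 50 to 100 kb 19.3% ± 0.826, at 100 to 200 kb 18.2% ± 0.819, at 200 to 500 kb 19.8% ± 0.620, at 500 to 1000 kb 20.2% ± 0.673, and farther away 24.8% ± 0.572. In control the order was another: 79.1% ± 2.13 (n = 9) between the genes, 72.7% ± 2.42 in the next 50 kb, 67.1% ± 3.06 at 500 to 1000 kb and 75.6% ± 2.60 farther away. In tests added after the data had been seen, the genes lay below the sequence between them within Dnmt1 KO at days 3 to 11 (-4.40 points ± 0.940, n = 7, all 7 below; exact sign-flip test, p = 0.0156) and within control (-1.58 ± 0.649, n = 9, all 9 below; exact sign-flip test, p = 0.00391). The genotypes differed by -2.57 points in this gap (exact permutation test, p = 0.000772). Compared with the 100 kb outside the clusters, the genes were 6.21 points above in control and lay at -5.18 points in Dnmt1 KO, a genotype difference of -9.55 points (same test and p).

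**Figure D4:**
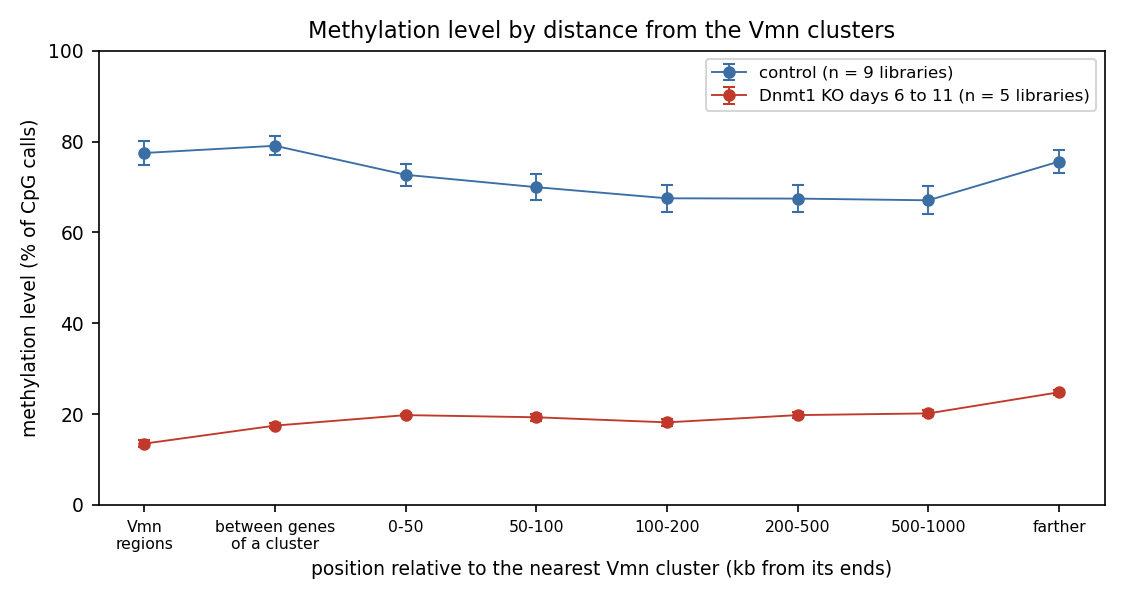
Methylation level as a percent of CpG calls (vertical axis) in the Vmn regions, between the genes of a cluster and at increasing distance from the ends of the nearest cluster in kb (horizontal axis). Points are means over libraries and bars their SD (control, 9 libraries; Dnmt1 KO at days 6 to 11, 5 libraries). The Dnmt1 KO means run from 13.5% in the regions to 24.8% farthest away.

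The Olfr genes were compared as a similar kind of gene family. They encode odorant receptors of the main olfactory epithelium and also lie in large tandem clusters. The Vmn level lay below the level of the 1243 autosomal Olfr genes in all 9 control libraries (mean difference -2.62 points ± 0.693, SD; exact sign-flip test, p = 0.00391, adjusted p = 0.00928). From day 3 on it also lay below in all 7 Dnmt1 KO libraries (-3.70 ± 0.684; exact sign-flip test, p = 0.0156, adjusted p = 0.0247). With whole cluster spans on the Vmn side only, this gap was -0.36 points and not called (adjusted p = 0.106, same test). The genotype difference in this gap was -0.83 points (exact permutation test, p = 0.0340, adjusted p = 0.0496), with 6 of 9 Dnmt1 KO libraries below the controls of their day. This last call did not hold: in the exact permutation test the adjusted p was 0.0992 without day 6, 0.0837 with a replicate block and 0.0507 or more when any one of 14 of the 18 libraries was left out, and the sign turned when clusters were weighted equally (0.41 points, p = 0.407) and, with a call, when whole cluster spans were used (1.11 points, adjusted p = 0.00489).

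Vmn1r and Vmn2r genes were compared next. Vmn1r minus Vmn2r was 0.42 points ± 1.80 within control (n = 9, p = 0.5) and 0.43 ± 1.47 within Dnmt1 KO at days 3 to 11 (n = 7, p = 0.453) in the exact sign-flip test, and differed by -0.75 points between genotypes (exact permutation test, p = 0.572). These tests do not show that the families are alike. With a 5 kb flank, Vmn1r genes were 1.18 points above Vmn2r genes in control and 1.02 points above in Dnmt1 KO (adjusted p = 0.0198 for both, exact sign-flip test). With clusters weighted equally the difference in control was 3.93 points (adjusted p = 0.00928) and the genotype difference -3.61 points (adjusted p = 0.0248, exact permutation test). The families differ in size: the median Vmn1r gene was 0.927 kb long with 12 CpGs in its region, and the median Vmn2r gene 18.1 kb with 70 CpGs. Pseudogenes minus protein-coding genes differed by 1.13 points between genotypes (exact permutation test, p = 0.110), and by 3.56 points with clusters weighted equally (adjusted p = 0.0212, same test). Equal weighting gives Vmn2r-ps19, a Vmn2r pseudogene at 25.8% in control, the weight of any other cluster. The next lowest cluster tested had 66.3%. How far Vmn2r-ps19 moves the equally weighted values was not tested. Gene starts (1 kb on either side of the start) minus the rest of the regions differed by 0.88 points (exact permutation test, p = 0.292).

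Among the parts of the genes, most calls came from Vmn2r introns, with 45052 calls in control. There the level was 78.0% ± 2.70 (SD, n = 9) in control and 13.4% ± 1.04 (n = 5) in Dnmt1 KO at days 6 to 11. Vmn2r exons held 77.5% ± 3.05 in control and 11.9% ± 1.61 in Dnmt1 KO. In the 1 kb before Vmn2r starts the levels were 68.9% ± 6.78 and 12.3% ± 1.05, the lowest control level of the parts. This part held 2450 control calls. Vmn2r-ps19 alone had 426 control calls at 25.8% in its region, gene body and both flanks included. How far it moves this level was not tested. Vmn1r exons held 77.3% ± 4.63 and 13.8% ± 3.42, and Vmn1r introns 78.7% ± 4.60 and 17.6% ± 1.39. The Vmn1r introns held 2174 calls in control. Vmn1r90 alone, annotated at 92.4 kb, had 1840 control calls in its region, exons and flanks included. Its share in the intron level was not tested. The parts were not tested against each other.

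The clusters were then tested one by one, beside every other autosomal gene, in a quasi-binomial model of the calls. Of the 51 clusters, 41 had at least 10 calls in every library and were tested, and these held 420 of the 435 genes. The other 10 clusters, with 15 genes, held 596 control calls at a pooled 84.9% and 344 Dnmt1 KO calls of days 6 to 11 at 16.3%. A cluster was called where it differed by at least 10 points and its p, adjusted by Benjamini-Hochberg over all 20268 features tested, was under 0.05. At day 1, 3 of 41 clusters were lower in Dnmt1 KO, with a background of 2.85% of all features called lower. These were Vmn2r-ps54 to Vmn2r-ps60 (-11.7 points ± 2.29, SE), Vmn2r19 to Vmn2r27 (-11.0 ± 2.72) and Vmn1r-ps53 to Vmn2r56 (-11.0 ± 2.99). The day 1 count fell to 0 or 1 when any one of the day 1 libraries was left out, 0 without control day 1 replicate 1 and 1 without each of the other 3.

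At days 3, 6, 9 and 11, 40 of 41 clusters were lower at each day. Day 6 has 1 library per genotype, which the model assumes to vary like those of the other days, from which its spread was taken. The background of features called lower was 87.5%, 88.7%, 91.7% and 90.4% at these days. The median difference over the 41 clusters was -50.5 points (day 3), -68.3 (day 6), -64.5 (day 9) and -60.8 (day 11), and over all features -46.5 points at day 9. The exception at each day was Vmn2r-ps19. Within Dnmt1 KO, 40 clusters were lower at day 3 than at day 1 (background 84.2%) and 8 were lower at day 6 than at day 3 (background 4.53%). The 8 included Vmn1r-ps84 to Vmn1r183 on chromosome 7 (-25.0 points ± 5.59, SE) and Vmn1r-ps25 to Vmn1r54 on chromosome 6 (-21.2 ± 4.50). The day 6 side of this contrast is 1 library, with the spread again taken from the other days. The count of 8 fell to 5 with a replicate block and to 1 without Dnmt1 KO day 3 replicate 2. From day 6 to day 9 and from day 9 to day 11 no cluster was called lower (0% of all features for both); 1 and 0 clusters had an unadjusted p under 0.05 in the quasi-binomial test, and limma on the percentages called 0 as well.

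Relative to the autosomal level of the same library, 32 of 41 clusters were lower within Dnmt1 KO at days 6 to 11, where 27.6% of all features were called lower and 9.05% higher (limma, adjusted p under 0.05 and at least 5 points). The other features, Olfr genes included, are single genes, while a cluster pools up to 39 genes. Shares called may therefore differ with the number of calls as well as with the level. All 41 differences were negative, with a median of -12.1 points, against -3.98 over all features. The change from control over days 3 to 11 was lower for 25 of 41 clusters, against 6.07% of all features, and higher for 1, against 34.9%. Its median was -12.8 points for the clusters and 5.19 for all features. The 25 clusters were among the 32. The largest gaps within Dnmt1 KO belonged to Vmn2r-ps47 to Vmn2r41 (-19.1 points ± 2.51, SE, adjusted p = 4.98e-05) and Vmn2r29 to Vmn2r-ps49 (-18.2 ± 2.60, adjusted p = 9.83e-05) on chromosome 7 and Vmn2r-ps128 to Vmn2r113 (-18.6 ± 4.39, adjusted p = 0.00424) on chromosome 17. Of these, Vmn2r29 to Vmn2r-ps49 had few calls per CpG (1.03), so its value is uncertain. The smallest adjusted p belonged to Vmn2r-ps62 to Vmn2r76 (-13.7 ± 0.954, adjusted p = 9.19e-08), Vmn2r-ps54 to Vmn2r-ps60 (-11.8 ± 0.952, adjusted p = 4.37e-07) and Vmn2r104 to Vmn1r233 (-16.0 ± 1.43, adjusted p = 1.19e-06).

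The clusters lower in both comparisons included both families. Those mostly of Vmn1r genes included Vmn1r4 to Vmn1r20 (-13.8 points within Dnmt1 KO), Vmn1r27 to Vmn1r31 (-16.7) and Vmn1r-ps25 to Vmn1r54 (-10.7) on chromosome 6, Vmn1r55 to Vmn1r65 (-11.3), Vmn1r91 to Vmn1r132 (-15.7) and Vmn1r-ps84 to Vmn1r183 (-13.6) on chromosome 7 and Vmn1r188 to Vmn1r223 (-8.84) on chromosome 13. Among these, Vmn1r91 to Vmn1r132 had few calls per CpG (1.03). Vmn2r clusters included Vmn2r1 to Vmn2r-ps12 (-7.23) on chromosome 3, Vmn2r8 to Vmn2r17 (-11.8) and Vmn2r18 (-14.3) on chromosome 5, Vmn2r80 to Vmn2r83 (-11.3) on chromosome 10, and Vmn2r-ps113 to Vmn2r96 (-10.8), Vmn2r97 to Vmn2r98 (-13.4), Vmn2r99 to Vmn2r103 (-14.1), Vmn2r114 to Vmn2r117 (-13.1) and Vmn2r120 (-12.1) on chromosome 17. Clusters called in neither comparison included Vmn2r37 to Vmn2r-ps44 (-7.13 ± 4.76), which has few calls per CpG, Vmn2r90 (-5.11 ± 3.05) and Vmn1r90 (-6.62 ± 3.19). Across the 41 clusters, the Dnmt1 KO level at days 6 to 11 had a Spearman rho of 0.434 with the control level, 0.40 with GC content, 0.291 with CpGs per kb and 0.0533 with calls per CpG. This is a description, since the clusters share libraries and levels of few calls carry more error.

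**Figure D5:**
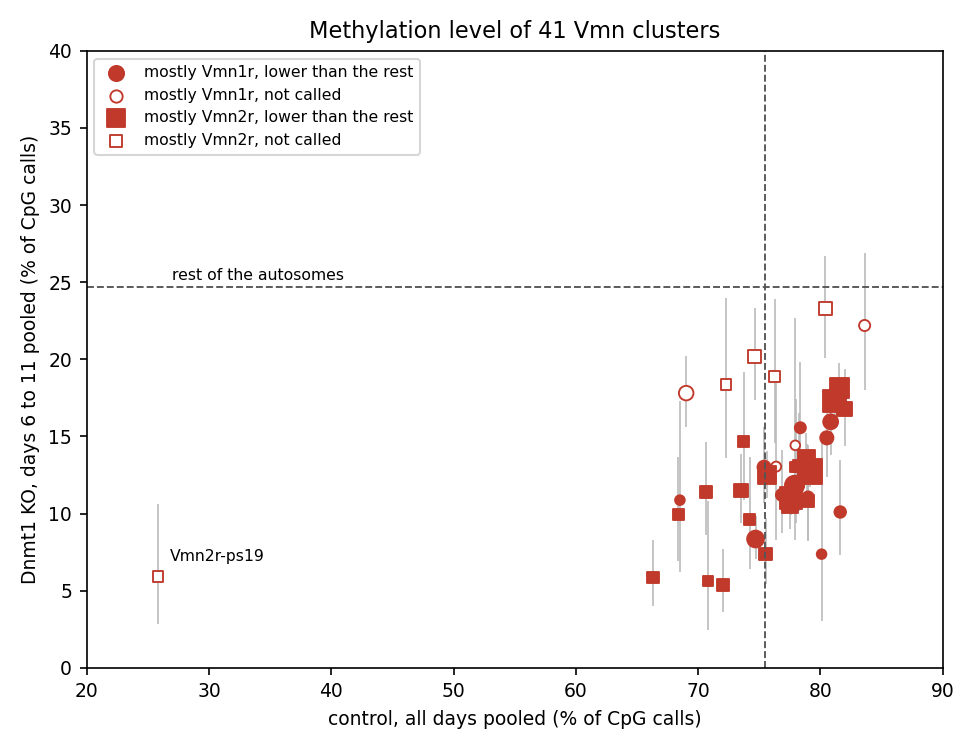
Pooled level in Dnmt1 KO at days 6 to 11 (vertical axis) against the pooled control level (horizontal axis), both as a percent of CpG calls, for the 41 clusters tested. Circles are clusters mostly of Vmn1r genes and squares those mostly of Vmn2r genes. Marker area grows with the number of calls, filled markers were lower than the rest of the autosomes within Dnmt1 KO, grey bars are 95% exact intervals and dashed lines give the rest of the autosomes. All clusters lie below the horizontal line, and Vmn2r-ps19 stands alone at a control level of 25.8%.

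The clusters with the most calls show the course in single libraries. In Vmn2r-ps54 to Vmn2r-ps60 (chromosome 7, 48923349 to 49686094, 11 genes), the 9 control libraries ran from 73.4% through 80.1% to 85.6%. The Dnmt1 KO libraries held 73.0% and 71.8% at day 1, 24.2% and 27.6% at day 3, 12.7% at day 6, 13.0% and 13.7% at day 9 and 12.1% and 12.3% at day 11. From day 3 on the groups lay far apart, and the 5 libraries of days 6 to 11 differed by less than 2 points. Vmn2r1 to Vmn2r-ps12 (chromosome 3, 63885564 to 64648687, 11 genes) held 77.1% to 85.9% in control, with a median of 81.9%. In Dnmt1 KO it held 77.6% and 76.0% at day 1, 31.3% and 32% at day 3, 17.7% at day 6, 15.5% and 19.4% at day 9 and 16.3% and 17.6% at day 11. All 5 late libraries of this cluster lay above those of Vmn2r-ps54 to Vmn2r-ps60.

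Among clusters with more Vmn1r than Vmn2r genes, Vmn1r-ps53 to Vmn2r56 (chromosome 7, 12238479 to 13318454, 29 Vmn1r and 5 Vmn2r genes) had the most calls. Its control libraries ran from 73.1% through 77.7% to 83.6%, and its Dnmt1 KO libraries held 69.5% and 70.3% at day 1, 25.6% and 25.9% at day 3, 11.24% at day 6, 10.6% and 12.5% at day 9 and 13.5% and 11.3% at day 11. Vmn2r104 to Vmn1r233 (chromosome 17, 20166389 to 21131650, 11 Vmn1r and 7 Vmn2r genes) ran from 65.4% through 76.3% to 78.7% in control. It held 72.2% and 69.2% at day 1, 22.0% and 21.1% at day 3, 10.2% at day 6, 6.97% and 6.95% at day 9 and 8.58% and 8.31% at day 11 in Dnmt1 KO. At days 6 to 11 all 5 libraries of the second cluster lay below those of the first.

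Among the 41 clusters tested, the lowest levels were those of 3 clusters of Vmn2r genes. Vmn2r-ps47 to Vmn2r41 (chromosome 7, 9607460 to 9990380) went from 66.7% to 77.3% in control, with a median of 71.7%, to 6.60% at day 6, 2.30% and 6.52% at day 9 and 4.65% and 6.54% at day 11. Vmn2r29 to Vmn2r-ps49 (chromosome 7, 7184038 to 8006572) had 53.1% to 78.9% in control, with a median of 64.8%, and 8.82%, 5.88%, 8.25%, 2.38% and 3.94% in the same 5 libraries. This cluster had few calls per CpG (1.03). Vmn2r-ps128 to Vmn2r113 (chromosome 17, 23066355 to 23095781) had 58.6% to 84.6% in control, with a median of 69.4%, and 6.25%, 0%, 6.06%, 3.33% and 16.7% in Dnmt1 KO, from 18 to 33 calls each (the 0 of 29 calls allows a share of up to 10.3%). Its pooled level was 5.63% (95% exact interval 2.46% to 10.8%). Such intervals cover counting error only, because 1 read, or any PCR duplicates left after deduplication, can give several calls.

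The highest levels among clusters tested stood near the rest of the autosomes. Vmn2r62 to Vmn2r63 (chromosome 7, 50019808 to 50189159) held 74.0% to 84.6% in control, with a median of 81.5%, and 20.2% at day 6, 17.8% and 33.7% at day 9 and 20.8% and 27.05% at day 11 in Dnmt1 KO (pooled 23.3%, 95% exact interval 20.1% to 26.7%). Vmn1r85 to Vmn1r-ps69 (chromosome 7, 13669638 to 13829711) held 77.9% to 93.2% in control, with a median of 82.4%, and 15.5%, 26.7%, 10.5%, 39.4% and 17.4% in those libraries. Vmn2r84 to Vmn2r87 (chromosome 10, 129822372 to 129934435) held 61.5% to 82.0% in control, with a median of 73.9%, and 25.3%, 16.8%, 22.4%, 17.8% and 16.8%. The libraries of Vmn1r85 to Vmn1r-ps69 spread most, and none of these 3 clusters was called lower than the rest.

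Vmn2r-ps19, a pseudogene on chromosome 4 (146817580 to 146818138), stood apart in control. Its region held 26.96 CpGs per kb, against a median of 4.22 over the clusters tested, and its control level was 25.8%, where the next lowest cluster had 66.3%. The 9 control libraries ran from 11.11% through 20.4% to 60.7%, with 26 to 72 calls each, and the Dnmt1 KO libraries from 3.12% to 37.9%, with 15 to 89. The groups overlapped. It was the cluster called higher in the change relative to the autosomes (32.7 points ± 7.72, SE, adjusted p = 0.00346), while within Dnmt1 KO it lay at -17.0 points ± 6.98 (adjusted p = 0.0655). A region this low in control cannot lose as many points as the rest of the autosomes. At day 9 these held 76.8% in control and 25.1% in Dnmt1 KO. The pooled level of Vmn2r-ps19 at days 6 to 11 was 24.2% in control and 5.92% in Dnmt1 KO. The call thus does not show that it kept more of its methylation. The start window printed above had 3 methylated of 108 calls in control, 2.78%, and 1.79% of 56 calls in Dnmt1 KO at days 6 to 11. This CpG-rich start had a lower pooled level than the whole region in both genotypes. The cluster of the single gene Vmn1r90 on chromosome 7 held 69.0% of 1840 calls in control and 17.8% of 1095 in Dnmt1 KO at days 6 to 11.

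Single genes were described by their pooled levels. In Dnmt1 KO at days 6 to 11, 104 Vmn genes had at least 100 calls, 99 of them Vmn2r genes, and their pooled levels ran from 2.82% through a median of 11.5% to 30.4%. Levels lay below 10% in 36 genes and above 24% in 5. The lowest 5 were Vmn2r106 (2.82% of 142 calls, 95% exact interval 0.773% to 7.06%), Vmn2r45 (3.45%), Vmn2r108 (4.14%), Vmn2r113 (4.35%) and Vmn2r104 (5.29%), with control levels of 77.9%, 73.7%, 70.5%, 70.7% and 78.5%. Of these, Vmn2r104, Vmn2r106 and Vmn2r108 lie between 20166389 and 20618200 on chromosome 17. The highest 5 were Vmn1r88 (30.4% of 125 calls, interval 22.5% to 39.3%), Vmn2r62 (25.9%), Vmn2r85 (25.5%), Vmn2r22 (24.9%) and Vmn2r87 (24.3%), with control levels of 91.8%, 81.0%, 76.8%, 84.2% and 73.4%. Genes with many calls lay between, such as Vmn2r7 (20.2% of 1563 calls), Vmn2r56 (15.7% of 489), Vmn2r60 (13.0% of 1036) and Vmn2r107 (11.15% of 287). Vmn2r63 held 22.2% of 464 calls and Vmn2r31 6.098% of 82.

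Other genes of chemical sensing, of the vomeronasal organ or of the main olfactory epithelium, were read from the same fits. Of 10 signalling genes, 8 could be tested, and 7 of them had a lower level in Dnmt1 KO at day 9 (median difference -46.7 points, against -46.5 and 91.7% called lower over all features). Relative to the autosomes within Dnmt1 KO at days 6 to 11 (limma), where 27.6% of all features were lower and 9.05% higher, 2 were lower, Gng8, a G-protein gamma subunit (-18.7 points, adjusted p = 0.00180), and Gnai2 (-8.22, adjusted p = 0.0137), and 1 was higher, Gnao1 (5.94, adjusted p = 0.00122). In the change from control, 0 of the 8 were lower and 4 higher, with a median of 6.40 points, against 6.07% lower, 34.9% higher and a median of 5.19 points over all features. The control levels of Gng8 and Gnai2 were 25.3% and 44.1%. Trpc2, the cation channel of vomeronasal transduction, held 65.9% in control and 24.01% in Dnmt1 KO. Of the formyl peptide receptor genes, of which some serve as vomeronasal receptors, 2 of 7 could be tested, and both were lower at day 9 while neither was called relative to the autosomes. Of 9 H2-M genes 1 could be tested, H2-M10.5 (78.7% in control, 15.5% in Dnmt1 KO). Of 16 trace amine receptor genes 2 could be tested, and Taar3 was called higher relative to the autosomes (14.99 points, adjusted p = 0.0470). Of 21 Mup and Esp genes, which encode secreted proteins that act as pheromones or carry them, 5 could be tested. All 5 were lower at day 9 (91.7% of all features), 2 were lower in the change relative to the autosomes (6.07% of all features), and none was called within Dnmt1 KO (27.6% of all features lower), where their median was -1.48 points. The 39 Olfr genes tested had a median of -7.10 points within Dnmt1 KO, with 8 lower and 3 higher, against a median of -3.98 points, 27.6% lower and 9.05% higher over all features. In the change from control they had a median of -7.90 points, with 9 lower and 0 higher, against a median of 5.19 points, 6.07% lower and 34.9% higher over all features.

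Coverage was compared to see whether the receptor genes were sampled alike. Vmn calls made up 615 to 871 per 1000000 autosomal calls in control and 784 to 894 in Dnmt1 KO. The genotypes differed by 0.06 on the log2 scale (exact permutation test, p = 0.0903, adjusted p = 0.123). Control day 1 replicate 2 had the 615, while the other 8 control libraries had 806 to 871. The difference passed the threshold without control day 1 replicate 1 (0.10, adjusted p = 0.0338) and without control day 3 replicate 2 (0.06, adjusted p = 0.0429), and was 0.02 without control day 1 replicate 2 (adjusted p = 0.315). For single genes, 353 of the 435 had at least 50 calls and 0 were called in edgeR's quasi-likelihood test (adjusted p under 0.05 and 2-fold), as were 0% of all 33286 genes. Of the 353, 12 had an unadjusted p under 0.05, DESeq2 also called 0, and the smallest adjusted p was 0.770 (edgeR). The median log2 fold change was 0.08. Among the 132 Vmn genes with at least 200 calls, fold changes on the log2 scale ran from -0.65 in Vmn2r-ps19 to 0.96 in Vmn2r38.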

How the data were processed

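Whole-genome bisulfite libraries were trimmed, aligned to NCBIM37 with Bismark (0.12.3 in the submitters' processing notes) and deduplicated by the authors. The deposited files give, for each cytosine, counts of methylated and unmethylated calls and the percent methylated, with no normalization. Calls at both strands of the CpGs of the reference were summed per region. Reads were amplified by PCR without molecular identifiers, so that calls are not independent, and intervals cover counting error only. Multiply aligned reads are usually lost from near-identical copies, and how this acts on the levels was not tested.

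Levels were compared with exact permutation tests written with numpy (2.4.6). They were adjusted by Benjamini-Hochberg over 19 tests, and over 12 further tests chosen after the data were seen. Exact intervals came from scipy (1.17.1). Clusters and all other autosomal genes (at least 10 calls in every library) were fitted with a quasi-binomial model whose dispersion was moderated with limma (3.58.1). Levels relative to the autosomes were fitted in limma weighted by calls. Call counts per gene (at least 50 calls in all) were tested with edgeR (4.0.16), with DESeq2 (1.42.0) as an alternative. The fits were tested on simulated calls that varied between libraries by binomial counting only. Replicates differed by more than that here, so the simulation does not show how the fits handle such spread.

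Values by library are given for the 2 clusters of each family with the most calls, the 3 highest and the 3 lowest in Dnmt1 KO, and any called higher relative to the autosomes. Named genes are the 5 highest and 5 lowest with at least 100 calls and the coding gene with the most calls in each named cluster. The members and lists were chosen with earlier results of these data known. Replicates differed by more than the counting noise of independent calls (chi-square per degree of freedom 5.12 to 9.24). As calls are not independent, this does not show that they differed beyond sampling noise. All were kept as separate libraries. The start with the most calls among Vmn1r genes is not reported here.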

Additional observations from a re-analysis of the deposited data

Results flagged for a closer look

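Vmn calls made up 615 per 1000000 autosomal calls in control day 1 replicate 2, apart from the other 8 control libraries, whose nearest value was 806. The threshold for such a gap is one that chance passes in about 1 of 20 groups. The methylation level of this library at the Vmn genes, 77.8%, lay within the range of the other control libraries. Whether its coverage bears on the level was not tested beyond leaving the library out.

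The gap between the Vmn genes and the rest of the autosomes differed between days within the genotype contrast. Dnmt1 KO minus control of this gap at days 9 and 11 was lower than at day 3 by a difference of -3.83 points (exact permutation of days within genotype, p = 0.0133, adjusted p = 0.0247). By day the genotype difference in the gap was -1.98 points (day 1), -9.41 (day 3), -13.2 (day 6), -12.3 (day 9) and -14.2 (day 11).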

How the results depend on the processing

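The differences between genotypes in the Vmn level, and relative to the rest of the autosomes, to the rest at the same density and to other coding genes, kept their direction and their call under every alternative run. With whole cluster spans, the difference from the Olfr genes turned to 1.11 points (adjusted p = 0.00489, exact permutation test), the gap to the same density in control turned to 0.69 points, the Olfr gap within Dnmt1 KO was -0.36 points (adjusted p = 0.106) and the coverage difference was 0.0721 on the log2 scale (adjusted p = 0.00742). With clusters weighted equally, the difference from the Olfr genes was 0.41 points, the gap to the rest of the autosomes in control was -0.21 points (p = 0.602, exact sign-flip test), Vmn1r minus Vmn2r was -3.61 points between genotypes and 3.93 points in control, and pseudogenes minus coding genes was 3.56 points (adjusted p = 0.0212, exact permutation test). With a 5 kb flank, the difference from the Olfr genes was -0.41 points, Vmn1r minus Vmn2r was 1.18 points in control and 1.02 points in Dnmt1 KO, and the coverage difference was 0.0611 (adjusted p = 0.0198). The difference from the Olfr genes was -0.63 points without the cluster with the most calls and -0.60 points without day 6. Whole spans and equal weighting were applied to the Vmn sets only, with the Olfr level left as that of pooled gene regions. Equal weighting counts Vmn2r-ps19, at 25.8% in control, as much as any other cluster. The cause of these changes was not tested.

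Joining genes within 50 kb gave 86 clusters tested and counts of 0 at day 1, 84 at day 3, 85 at days 6, 9 and 11, 85 from day 1 to day 3, 3 from day 3 to day 6, and 56 and 64 in the relative comparisons, and the cause of the changed counts was not tested. The share of all features called under this setting is not given here. In the main fits it was 87.5% to 91.7% lower at days 3 to 11. In the relative comparisons it was 6.07% and 27.6%. Same-numbered replicates did not deviate together across features (correlations -0.0126 to 0.00787). A shift common to all features drops out of this check, so it cannot tell whether they shared a culture or preparation. With the replicate block the difference from the Olfr genes was -0.83 points (adjusted p = 0.0837, exact permutation test) and the count from day 3 to day 6 was 5, and no other call changed among the results fitted with it, apart from counts of 2 at day 1 and 38 from day 1 to day 3.

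Leaving out each library in turn gave -0.997 to -0.603 points for the difference from the Olfr genes, 0.0184 to 0.0964 for log2 coverage, -10.7 to -10.1 points against the rest of the autosomes, -7.82 to -7.45 at the same density and -3.87 to -3.58 against the Olfr genes within Dnmt1 KO, -4.21 to -3.46 points for the day dependence, -1.02 to 0.13 for Vmn1r minus Vmn2r, 0 to 3 clusters at day 1 and 1 to 8 from day 3 to day 6. At 1.202 to 1.253 calls per cytosine, single CpGs were not tested, and the 10 clusters with fewer than 10 calls in a library were left out by the filter. With no minimum per library and at least 50 calls in all, 50 clusters were tested, of which 42 to 48 were lower at days 3 to 11 and 28 and 33 in the relative comparisons. The share of all features called under this filter is not given here. In the main fits it was 87.5% to 91.7% at days 3 to 11, and 6.07% and 27.6% in the relative comparisons.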
